A study of Mus musculus with 16 samples.

Results

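The expression of 10 genes of dendritic cells and Langerhans cells was followed in footpad RNA: Cd207, Epcam, Flt3, Zbtb46, Xcr1, Clec9a, Itgax, Cd209a, Ccl17 and Ccl22. The members were chosen by symbol, each by its brightest probe set over the 16 arrays, and all 10 were measured among 19938 genes, with 1 probe set each. The mice came from the AIRmax and AIRmin lines, outbred stocks selected from one intercross for maximal or minimal acute inflammation. The 4 groups of 4 mice, each with 2 males and 2 females, were compared by line and treatment. AIRmax pristane and AIRmin pristane mice had received 2 intraperitoneal injections of 0.5 ml of pristane, a mineral oil used to induce arthritis in mice, 60 days apart, and their footpads belong to day 160. AIRmax control and AIRmin control footpads belong to day 0, so that pristane, time and age cannot be told apart. All groups carry the same age label, 2 to 4 months, and the labels give no arthritis score for any mouse. No transgene or deletion was involved. Each array held footpad RNA of 1 mouse, read on the Affymetrix Mouse Gene 1.0 ST array, and its signals are given on the log2 scale.

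Dendritic cells take up antigen in tissues and carry it to the draining lymph node, where they present it to T cells on MHC class II molecules. Langerhans cells do this in the epidermis, where they are held among keratinocytes, whereas the conventional dendritic cells of the dermis are divided into a cross-presenting type (cDC1, marked in the mouse by Xcr1 and Clec9a) and a type marked by Sirpa, Irf4 and, in part, Cd209a and Mgl2 (cDC2). Footpad skin therefore holds several of these cells beside the keratinocytes, muscle, fat and resident macrophages of the same sample. Some of the genes are shared: Itgax is also made by macrophages, Epcam by epithelium, and Cd209a by monocyte-derived cells.

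The bases just before the transcription start are shown for 3 members, each of which separated a pair of groups without overlap: Cd209a, whose signal was lower with pristane in both lines, Ccl17, which separated the AIRmax pristane and AIRmax control arrays, and Cd207, which separated the control arrays of the lines. They are the 250 bases upstream of the start in RefSeq (mouse build GRCm38.p6), 5′ to 3′ on the strand of the gene, at chr8:3748985-3749234 (minus strand) for Cd209a, chr8:94810203-94810452 (plus strand) for Ccl17, where the start lies inside the annotated gene, and chr6:83677858-83678107 (minus strand) for Cd207. Zbtb46 also separated a pair of groups without overlap, the pristane arrays of the lines, and its window is not shown. Across the comparisons of groups, 7.51% to 10.8% of all genes did not overlap. Capitals mark matches to the motifs searched on both strands.
Cd209a: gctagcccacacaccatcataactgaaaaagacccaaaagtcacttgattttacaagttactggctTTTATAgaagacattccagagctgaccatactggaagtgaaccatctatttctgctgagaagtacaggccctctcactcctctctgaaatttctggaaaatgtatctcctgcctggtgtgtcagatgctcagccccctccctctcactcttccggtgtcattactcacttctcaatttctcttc
Ccl17: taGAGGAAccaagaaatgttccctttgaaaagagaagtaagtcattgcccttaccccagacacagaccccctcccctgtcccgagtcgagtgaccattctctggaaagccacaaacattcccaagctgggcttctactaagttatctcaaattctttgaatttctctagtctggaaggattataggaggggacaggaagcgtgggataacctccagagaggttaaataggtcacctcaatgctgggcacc
Cd207: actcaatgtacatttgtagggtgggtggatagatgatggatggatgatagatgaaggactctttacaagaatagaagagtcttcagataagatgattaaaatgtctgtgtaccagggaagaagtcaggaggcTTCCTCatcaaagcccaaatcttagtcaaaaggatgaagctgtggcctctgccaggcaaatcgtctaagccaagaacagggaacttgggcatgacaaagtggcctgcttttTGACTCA
The capitals in Cd209a match the core promoter element TATAAA, read on the opposite strand, at positions -184 to -179 from the start. In Ccl17 they mark GAGGAA, a core bound by the myeloid factor PU.1, at -248 to -243. Those in Cd207 are GAGGAA on the opposite strand, at -118 to -113, and TGANTCA, the AP-1 type site, at -7 to -1. Among 32851 mouse windows of this length, GAGGAA was found in 23.3%, TGANTCA in 6.75% and TATAAA in 12.4%. Among the 10 members, GAGGAA was found in 2 windows, TGANTCA in 3 and TATAAA in 3. These matches describe letters and were not tested as binding sites, and no motif overlapped another in the 3 windows shown.

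The arrays resembled each other closely, with medians of 5.44 to 5.53 log2 units and pairwise correlations of 0.94 to 0.99 across genes. Xist was bright in all 8 females (9.07 to 10.09) and dim in all 8 males (3.45 to 4.32), and the sex label of every array held. The mean level of 12 keratinocyte markers was 8.77 to 11.34 and that of 10 skeletal muscle markers 8.35 to 10.78, so both tissues of a footpad were present on every array.

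Cd209a, a C-type lectin of dermal dendritic cells, was the member that differed most with pristane. Its signal was 0.98 ± 0.39 log2 units lower in AIRmax pristane than in AIRmax control footpads and 1.12 ± 0.21 lower in AIRmin pristane than in AIRmin control footpads (difference ± standard error, 4 arrays a group). The other 9 members showed no difference that passed the test in any comparison. A gene was called where limma gave a Benjamini-Hochberg adjusted p under 0.05 over all 19938 genes. By that rule 0 of 10 members were called between AIRmax pristane and AIRmax control, where 0.281% of all genes were called, and 0 of 10 between AIRmin pristane and AIRmin control, where 0% of all genes were called. At an unadjusted p under 0.05, 2 of 10 members and 14.4% of all genes passed in AIRmax, and 1 of 10 members and 12.4% of all genes passed in AIRmin. Between the lines, 0 of 10 members were called in the pristane footpads, against 1.36% of all genes, and 0 of 10 in the control footpads, against 0.0802% of all genes. Less RNA per cell and fewer cells of a type cannot be told apart in such whole-tissue samples.

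**Figure D1:**
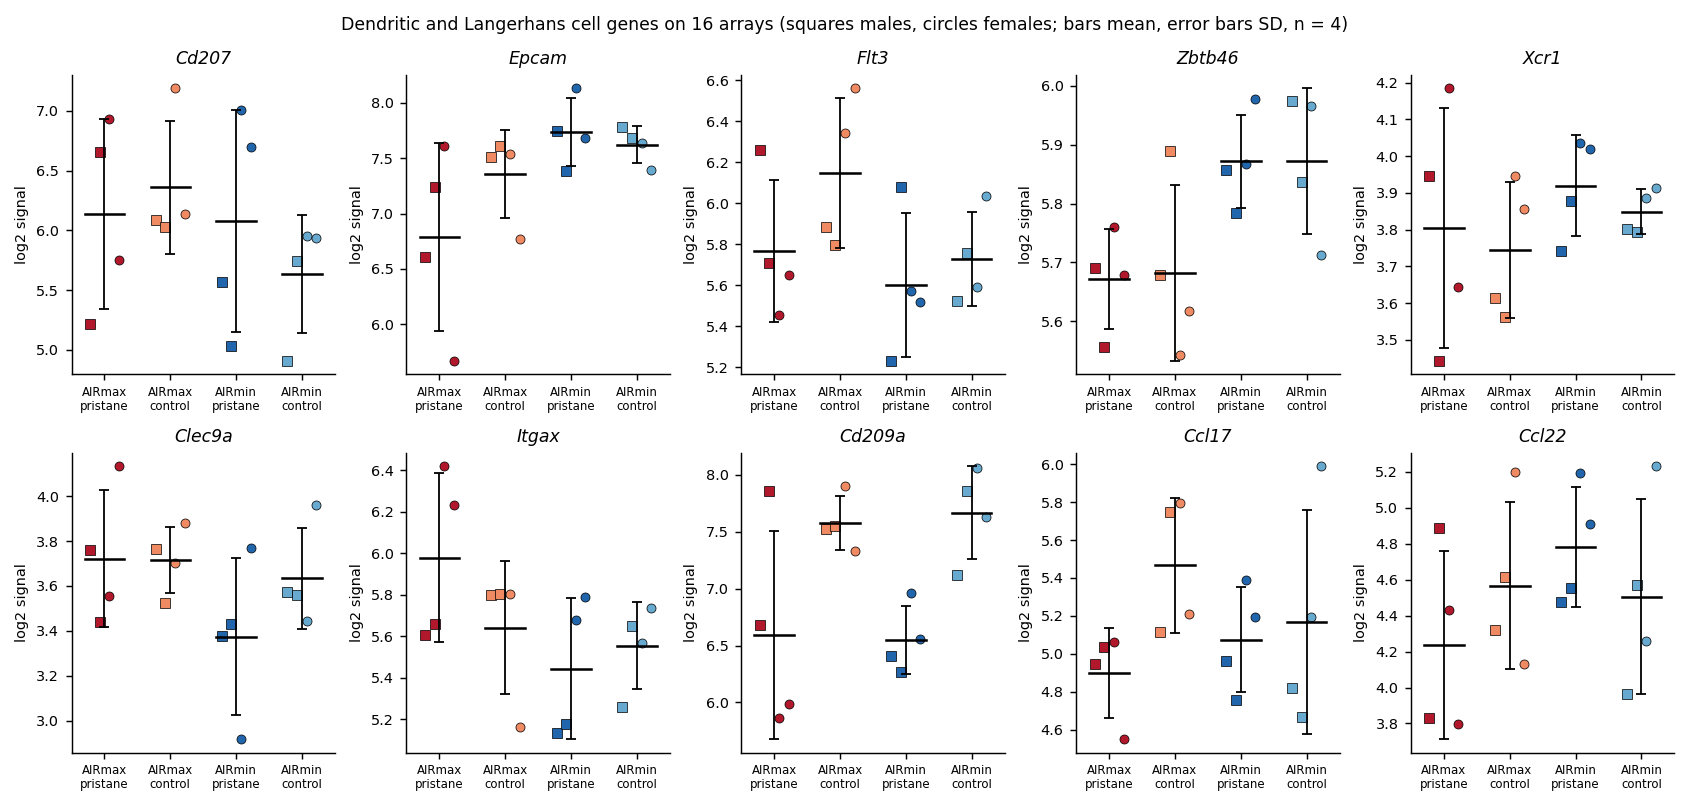
Log2 signal of the 10 dendritic and Langerhans cell genes on each of 16 arrays, by group (squares males, circles females, bars the mean, error bars the SD of 4 arrays, each panel with its own axis). Cd209a lies lower in both pristane groups except for 1 AIRmax pristane male at 7.85, and Xcr1 and Clec9a stay between 2.92 and 4.19 on every array.

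Cd207 encodes langerin, the lectin of Langerhans cells that builds their Birbeck granules (chromosome 6, 83671207 to 83677857, GRCm38.p6). Its log2 signals were 5.21, 6.65, 6.93 and 5.75 in AIRmax pristane footpads, against 6.09, 6.03, 7.19 and 6.13 in AIRmax control footpads. In AIRmin pristane footpads they were 5.57, 5.04, 7.01 and 6.70, against 4.91, 5.74, 5.95 and 5.94 in AIRmin control footpads. The groups overlapped within both lines, and the pristane arrays were the more scattered, with SDs of 0.80 and 0.93 in AIRmax and AIRmin against 0.55 and 0.49 in the controls of the same lines. The pristane difference was -0.22 in AIRmax (95% interval -1.13 to 0.69) and 0.44 in AIRmin (-0.50 to 1.38), so that a fall of 1 log2 unit lay inside the interval in AIRmax. Every AIRmax control array lay above every AIRmin control array, by 0.72 ± 0.30 on average (limma adjusted p = 0.277). The difference was 0.45 without the AIRmax control female numbered 107 and 0.48 without the AIRmin control male numbered 113. A lack of overlap was seen for 1 of 10 members and 10.3% of all genes in that comparison. The pristane footpads of the lines averaged 6.14 in AIRmax and 6.08 in AIRmin and overlapped.

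Cd207 was also compared by sex. Females lay above males on average in 4 of 4 groups, and without overlap in 3 of them, and the same counts held for Xcr1. Each group holds only 2 females and 2 males, and the share of all genes without such overlap was not computed. These counts are therefore only a description, and Xcr1 lay at or below the highest male Xist signal on 16 of 16 arrays. The Cd207 difference, females minus males over the 16 arrays, was 0.80 ± 0.25 log2 units (limma adjusted p = 0.631). It did not pass the test across genes, where 0.105% of all genes were called. In AIRmin pristane footpads the females averaged 6.85 and the males 5.30, and this was the group with the widest gap. Xcr1 and Itgax were higher in females as well, by 0.21 ± 0.08 and 0.29 ± 0.14 (adjusted p = 0.888 and 0.9996), so that 3 of 10 members, against 4.98% of all genes, had an unadjusted p under 0.05 for sex and none was called.

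Epcam encodes an adhesion molecule of Langerhans cells that is also made by epithelium (chromosome 17, 87635979 to 87651127). Its signals were 6.61, 7.24, 7.61 and 5.67 in AIRmax pristane footpads and 7.51, 7.61, 7.53 and 6.77 in AIRmax control footpads. They were 7.74, 7.39, 8.13 and 7.69 in AIRmin pristane footpads and 7.78, 7.69, 7.64 and 7.39 in AIRmin control footpads. An AIRmax pristane female was the lowest of all 16 arrays, and AIRmax pristane overlapped with each of the other groups. AIRmax pristane footpads were 0.95 ± 0.37 lower than AIRmin pristane footpads (adjusted p = 0.213), and over both treatments AIRmax was 0.61 ± 0.22 lower than AIRmin (adjusted p = 0.0897, with 0 of 10 members and 9.46% of all genes called). With each array left out in turn the line difference spanned -0.75 to -0.42, with adjusted p between 0.0318 and 0.177, and passed the threshold only without the AIRmax pristane female numbered 111. Without the AIRmax pristane female numbered 112 it was -0.42, and the difference between the pristane footpads was -0.58 (adjusted p = 0.379). The mean level of 12 keratinocyte markers ran the same way. It spanned 8.77 to 10.81 in AIRmax pristane, 9.81 to 10.71 in AIRmax control, 10.45 to 11.34 in AIRmin pristane and 10.53 to 10.77 in AIRmin control footpads, and 12 of 12 were lower in AIRmax than in AIRmin over both treatments, with 1 called. Their part in the Epcam values was not tested.

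Flt3 is the receptor for the cytokine Flt3l, on which dendritic cell precursors depend (chromosome 5, 147330741 to 147400489). It measured 6.26, 5.71, 5.45 and 5.65 in AIRmax pristane footpads, against 5.89, 5.80, 6.34 and 6.56 in AIRmax control footpads. In AIRmin it measured 5.23, 6.08, 5.57 and 5.52 with pristane and 5.52, 5.76, 5.59 and 6.04 in the controls. All groups overlapped. The pristane differences were -0.38 ± 0.22 in AIRmax and -0.13 ± 0.18 in AIRmin (adjusted p = 0.457 and 0.828), and AIRmax control footpads lay 0.42 ± 0.18 above AIRmin control footpads (adjusted p = 0.293). The ligand Flt3l differed by -0.16 ± 0.11 with pristane in AIRmax and by -0.09 ± 0.08 in AIRmin and was not called.

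Zbtb46, a transcription factor of the conventional dendritic cell lineage (chromosome 2, 181371009 to 181493262), varied least of all 10, over 0.43 log2 units. It measured 5.69, 5.56, 5.76 and 5.68 in AIRmax pristane footpads and 5.86, 5.78, 5.87 and 5.98 in AIRmin pristane footpads, so that these groups did not overlap, as was the case for 1 of 10 members and 10.8% of all genes. The AIRmax control arrays, at 5.68, 5.89, 5.54 and 5.62, overlapped with the AIRmin control arrays, at 5.97, 5.84, 5.97 and 5.71. AIRmax was lower than AIRmin by 0.20 ± 0.09 with pristane (adjusted p = 0.285) and by 0.19 ± 0.06 over both treatments (adjusted p = 0.0642). Without the AIRmax control male 106 or the AIRmin control female 116 the difference over both treatments was called, and the lowest adjusted p so reached was 0.0371. With pristane Zbtb46 changed by -0.01 in AIRmax (95% interval -0.24 to 0.22) and by -0.00073 in AIRmin (-0.21 to 0.21), the narrowest intervals of the 10 members in both lines.

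Xcr1, the receptor that draws cDC1 to the chemokine Xcl1 (chromosome 9, 123852315 to 123862029), and Clec9a, the cDC1 receptor for actin of dead cells (chromosome 6, 129408862 to 129424764), were the dimmest members. Xcr1 ranged from 3.44 to 4.19 and Clec9a from 2.92 to 4.13 over the 16 arrays. On 16 of 16 arrays both lay at or below 4.32, the highest signal of Xist in a male, a sex in which Xist is silent. Y-linked genes were lower still in females, at 2.67 to 3.34 for Kdm5d, 2.04 to 2.48 for Eif2s3y and 2.13 to 2.79 for Uty. Every Xcr1 value lay above these 3 genes and every Clec9a value above Eif2s3y and Uty, so the silent genes set no single level, and probe sets differ in their own background. Neither was called in any comparison, and their pristane differences were 0.06 and 0.0048 in AIRmax and 0.07 and -0.26 in AIRmin. Ccl22 lay at or below the highest male Xist signal on 6 of 16 arrays and the other members on none.

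Itgax encodes CD11c, an integrin chain of dendritic cells that macrophages also carry (chromosome 7, 128129526 to 128150657). It was 5.61, 5.66, 6.42 and 6.23 in AIRmax pristane footpads, and 5.80, 5.80, 5.81 and 5.16 in AIRmax control footpads. In AIRmin it was 5.13, 5.17, 5.68 and 5.79 with pristane and 5.26, 5.65, 5.57 and 5.74 in the controls. The AIRmax pristane arrays overlapped with every other group, and the difference between the pristane footpads of the lines was 0.54 ± 0.23 (adjusted p = 0.248). The mean level of 12 macrophage markers, 8.75 to 8.98 in AIRmax pristane and 8.08 to 8.56 in AIRmin pristane footpads, did not overlap between these groups. Of the 12, 3 were called higher, beside 1.36% of all genes called: Cd68 by 1.29, Adgre1 by 1.53 and Fcgr1 by 1.27. Another 2 of the 12 had negative differences, among them Lyve1 at -0.89 ± 0.18 (limma adjusted p = 0.0509), and were not called. The part of macrophages in the Itgax values was not tested. Itgb2, the chain that pairs with CD11c, was 1.29 ± 0.34 higher in AIRmax than in AIRmin over both treatments (adjusted p = 0.0321).

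Cd209a measured 6.68, 7.85, 5.86 and 5.98 in AIRmax pristane footpads, against 7.52, 7.55, 7.90 and 7.33 in AIRmax control footpads. It measured 6.41, 6.27, 6.96 and 6.56 in AIRmin pristane footpads, against 7.12, 7.86, 8.06 and 7.63 in AIRmin control footpads (chromosome 8, 3743395 to 3748984). In AIRmin all 4 pristane arrays lay below all 4 control arrays, whereas in AIRmax the male numbered 110 lay within the control range. The fold change was 0.506 in AIRmax (adjusted p = 0.303) and 0.460 in AIRmin (adjusted p = 0.0782), so neither line alone passed the threshold by limma. Significance analysis of microarrays (SAM) at a false discovery rate of 0.05 called Cd209a in AIRmin, 1 of 422 genes it called there, and did not call it in AIRmax. The responses of the lines differed by 0.14 log2 units (95% interval -0.89 to 1.16, adjusted p = 0.976, with 0 of 10 members and 0.171% of all genes called), an interval that leaves room for a difference of about 1 log2 unit.

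After Cd209a had been seen lower in both lines, a contrast of pristane against control averaged over the lines was added on all 16 arrays, so its result for Cd209a is a description that was chosen on these data. Pristane footpads were lower by 1.05 ± 0.24 (fold change 0.483, adjusted p = 0.0306). 1 of 10 members was called lower, against 1.97% of all genes called lower. The call stayed under 7 other ways of processing, with adjusted p between 0.0292 and 0.0451. It was lost, with adjusted p up to 0.0733, when any one of 10 arrays was left out: AIRmax control 105, 106 or 107, AIRmax pristane 111 or 112, AIRmin control 114, 115 or 116, or AIRmin pristane 117 or 118. Without AIRmax pristane 110 the adjusted p was 0.00285.

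Another 4 genes of the Cd209 cluster were on the array, and all had lower signals with pristane in both lines. Cd209d differed by -0.59 ± 0.35 in AIRmax and -0.85 ± 0.16 in AIRmin, Cd209b by -0.60 ± 0.41 and -0.55 ± 0.18, Cd209c by -0.40 ± 0.18 and -0.31 ± 0.11, and Cd209e by -0.37 ± 0.23 and -0.43 ± 0.20. None of these 4 was called, and averaged over the lines the limma adjusted p of Cd209d was 0.0759. These genes are close copies of Cd209a, and how far their probe sets share transcripts is uncertain. Of all genes on the array, Cd209d was the one whose signal followed Cd209a most closely over the 16 arrays (r = 0.91, and 0.90 after group means were removed).

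**Figure D2:**
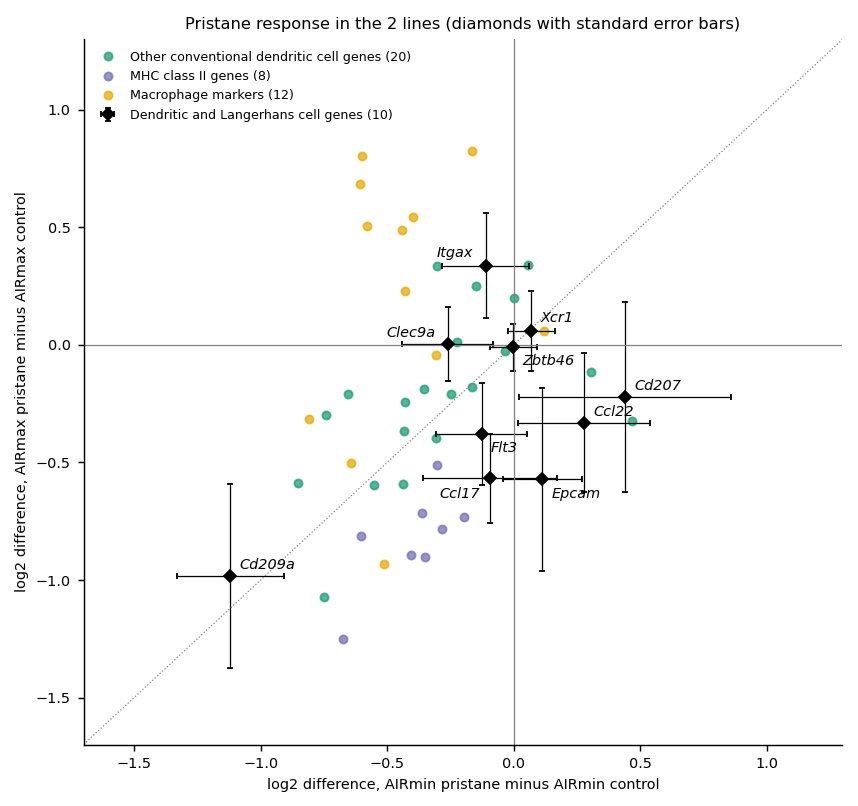
Difference of log2 signal with pristane in AIRmax (vertical) and in AIRmin (horizontal) for the 10 members (diamonds, bars the standard error), other conventional dendritic cell genes, MHC class II genes and macrophage markers, with the dotted line marking equal differences. Cd209a lies at -0.98 and -1.12, apart from the other members, which lie within 0.57 log2 units of 0 on both axes, and the 8 MHC class II genes all lie below 0 on both.

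Ccl17 and Ccl22 encode chemokines that dendritic cells make to attract T cells through the receptor Ccr4, and they are neighbours on chromosome 8 (94809380 to 94812038 and 94745684 to 94751388), 58.0 kilobases apart. Ccl17 measured 4.95, 5.04, 5.06 and 4.55 in AIRmax pristane footpads, against 5.11, 5.75, 5.80 and 5.21 in AIRmax control footpads. All 4 pristane arrays lay below all 4 controls, by 0.57 ± 0.19 on average (adjusted p = 0.237). This lack of overlap was seen in 1 of 10 members and 9.39% of all genes in AIRmax. In AIRmin, where 7.51% of all genes and 1 of 10 members (Cd209a) did not overlap, Ccl17 was 4.96, 4.75, 5.39 and 5.20 with pristane and 4.82, 4.67, 5.19 and 5.99 in the controls, groups that overlapped. Ccl17 responses of the lines (AIRmax minus AIRmin) differed by -0.47 ± 0.35 (adjusted p = 0.806), so a difference between the lines was not shown.

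Ccl22 was 3.83, 4.89, 4.43 and 3.80 in AIRmax pristane footpads and 4.32, 4.62, 5.20 and 4.13 in AIRmax control footpads. In AIRmin it was 4.48, 4.55, 5.20 and 4.91 with pristane, against 3.96, 4.57, 4.26 and 5.23 in the controls. The groups overlapped in each comparison, and the pristane differences were -0.33 ± 0.30 in AIRmax and 0.28 ± 0.26 in AIRmin. Over the 16 arrays the signals of Ccl17 and Ccl22 had the highest correlation of the 45 pairs of members (r = 0.68). After group means were removed it was 0.76, as was that of Cd207 and Ccl22. Ccr4 differed by 0.19 ± 0.18 with pristane in AIRmax and by 0.50 ± 0.20 in AIRmin and was not called.

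**Figure D3:**
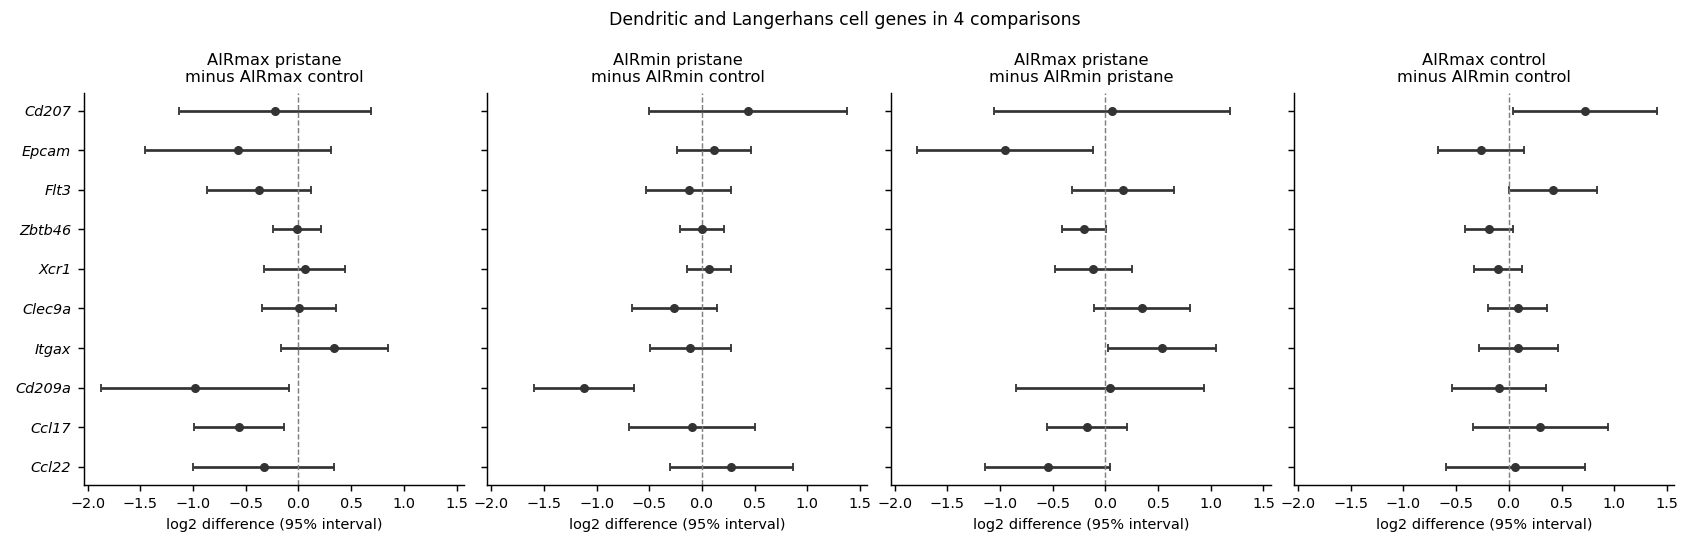
Difference of log2 signal for each of the 10 members in 4 comparisons (points, with 95% intervals as bars), named above each panel. The Cd209a interval in AIRmin lies between -1.59 and -0.65, and most other intervals cross 0.

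As a group the members showed no common direction. The median difference with pristane was -0.28 in AIRmax and -0.05 in AIRmin, beside 0.03 and 0.02 over all genes, and between the lines it was -0.03 with pristane and 0.07 in the controls, beside -0.01 and -0.03. Of the 45 pairs of members, 25 had a correlation above 0 over the 16 arrays, with a median of 0.11 and a range of -0.72 to 0.68. Epcam and Clec9a formed the pair at the lower end. All these arrays share 4 groups and 2 sexes, so the correlations describe the samples only.

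The genes whose signal was most like each member set the members apart from each other. Cd207 was followed most closely by Il34 (r = 0.83), the keratinocyte cytokine on which Langerhans cells depend, then by Ccdc117 and Alox12e (both 0.82). Epcam was followed by Tmem45a, Perp and Spink5 (r = 0.97 each), of which Perp and Spink5 are genes of stratified epithelium. Flt3 was followed by the integrin Itgb7 (r = 0.87), Itgax by Gnao1 (0.88), Ccl17 by Aff3 (0.81) and Ccl22 by the T cell kinase Zap70 (0.85). For Zbtb46, Xcr1 and Clec9a the nearest genes were Tmem247 (0.85), Olfr483 (0.82) and Frmd4a (0.91). The nearest genes were picked out of 19938 on 16 arrays, and the values are given as a description.

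Il34 itself differed by -0.03 ± 0.22 with pristane in AIRmax and by 0.23 ± 0.24 in AIRmin. A list of 13 ligands and receptors held partners of the members, such as Flt3l, and other factors and receptors, such as Il34, Csf1r and Tgfb1. Of the 13, 0 were called with pristane in either line. Over both treatments 2 were called higher in AIRmax than in AIRmin, where 9.46% of all genes were called in either direction: Itgb2, and Tgfb1 by 0.58 ± 0.17 (adjusted p = 0.0421). In the same comparison 8 of 8 mature neutrophil markers were higher (median 1.60, 2 called). Of 12 macrophage markers 5 were called higher and 1, Lyve1, was called lower. The part of neutrophils and macrophages in these values was not tested. Tgfb1 encodes a growth factor needed for Langerhans cells in the mouse.

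Other genes of conventional dendritic cells were measured as a list of 20, which includes Cd209b, Cd209c, Cd209d and Cd209e, already described above. Of the 20, 15 had a negative difference in AIRmax and 16 in AIRmin, with medians of -0.21 and -0.31 beside 0.03 and 0.02 over all genes, and 0 were called in either line. At an unadjusted p under 0.05, 3 were higher and 1 lower in AIRmax, beside 14.4% of all genes in either direction. In AIRmin 1 was higher and 8 lower, beside 12.4% of all genes in either direction. Averaged over the lines 2 were called lower, beside 1.97% of all genes: Mgl2, a lectin gene of dermal cDC2 and macrophages, by 0.91 ± 0.18 (adjusted p = 0.0156), and the adhesion gene Cadm1 by 0.33 ± 0.08 (adjusted p = 0.0439). Mgl2 averaged 6.83 ± 0.19 in AIRmax pristane and 7.90 ± 0.51 in AIRmax control footpads, and 7.0 ± 0.32 in AIRmin pristane and 7.75 ± 0.48 in AIRmin control footpads (SD, n = 4 each), without overlap in AIRmax. Irf4, which cDC2 need, differed by -0.59 ± 0.29 in AIRmax and -0.44 ± 0.17 in AIRmin and was not called. Sirpa, another cDC2 marker, differed by 0.33 ± 0.15 in AIRmax and -0.30 ± 0.24 in AIRmin and was not called. Between the lines, Sirpa, Wdfy4 and Id2 were called higher in AIRmax over both treatments, by 0.80 ± 0.15, 0.98 ± 0.27 and 0.36 ± 0.11. That is 3 of 20 beside the 9.46% of all genes called. In that comparison 8 of 8 neutrophil markers and 10 of 12 macrophage markers were higher too, whereas the macrophage marker Lyve1 was called lower.

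The 8 measured MHC class II genes, which serve antigen presentation in dendritic cells, macrophages and B cells alike, were lower with pristane in both lines, 8 of 8 each time, with medians of -0.80 in AIRmax and -0.36 in AIRmin. In AIRmax 2 of 8 were called, beside 0.281% of all genes: H2-Ob (-1.25 ± 0.16, adjusted p = 0.0241) and H2-Oa (-0.90 ± 0.14, adjusted p = 0.0489). Averaged over the lines 5 of 8 were called lower, beside 1.97% of all genes. Among the 5 was Ciita, the master regulator of the group (-0.41 ± 0.09, adjusted p = 0.021). All 8 were also higher in AIRmax than in AIRmin over both treatments, with 4 called, beside 9.46% of all genes. The class II gene H2-Ea was not in this list, and the study reports it as low in AIRmax. The study also reports different MHC haplotypes in the lines, and the part of the haplotypes in these signals was not tested. B cell markers moved with the class II genes: 6 of 7 were called lower with pristane over the lines, beside the same 1.97% of all genes. Their mean level spanned 4.61 to 5.56 in AIRmax pristane against 5.70 to 6.74 in AIRmax control footpads, and 4.63 to 5.37 in AIRmin pristane against 5.62 to 6.35 in AIRmin control footpads. H2-Ob and H2-Oa are known chiefly from B cells, and the part of B cells in these values was not tested.

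Among 14 maturation genes, 10 had a positive difference with pristane in AIRmax (median 0.12), 3 in AIRmin (median -0.15) and 8 over the lines (median 0.05). Cd83 and Cd86, a surface marker and a costimulatory ligand of activated dendritic cells, were called lower with pristane over the lines, by 0.53 ± 0.09 and 0.62 ± 0.11 (adjusted p = 0.00646 and 0.00984). They were the 2 calls among the 14, beside 1.97% of all genes called lower. Cd83 and Cd86 are both made by B cells too. Marcksl1 and Fscn1, of which Fscn1 encodes the actin-bundling protein of migrating dendritic cells, were called higher in AIRmax pristane than in AIRmin pristane footpads, by 1.62 and 1.0. That is 2 of 14, beside 1.36% of all genes called. In this comparison 3 of 12 macrophage markers were called higher too, while 2 of the 12 had negative differences. The part of macrophages in these values was not tested. Of 8 plasmacytoid dendritic cell genes 1 was called with pristane in AIRmax, beside 0.281% of all genes. It was Siglech, a surface lectin of these cells, lower at 4.53 ± 0.12 in AIRmax pristane against 5.37 ± 0.14 in AIRmax control footpads (SD, n = 4 each, adjusted p = 0.0241). In AIRmin, Siglech averaged 4.96 ± 0.31 with pristane and 5.21 ± 0.21 in the controls and was not called. The difference between the responses of the lines was not called either (limma adjusted p = 0.403). Averaged over the lines Siglech was called lower with pristane, by 0.54 ± 0.10 (limma adjusted p = 0.0112), beside 1.97% of all genes called lower.

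**Figure D4:**
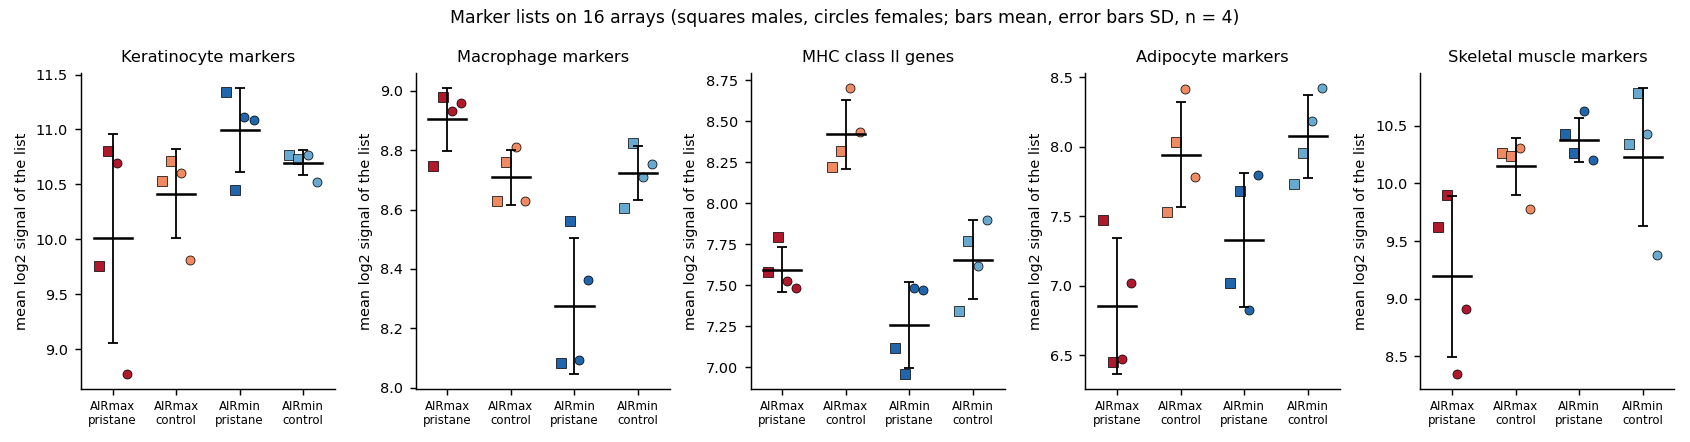
Mean log2 signal of keratinocyte, macrophage, MHC class II, adipocyte and skeletal muscle markers on each of 16 arrays, by group (squares males, circles females, bars the mean, error bars the SD of 4 arrays, each panel with its own axis). AIRmax pristane arrays reach the lowest keratinocyte level, 8.77, and MHC class II genes are highest in AIRmax control footpads, at 8.22 to 8.71.

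Among 12 macrophage markers, Mrc1 and Lyve1, which resident tissue macrophages carry, were called lower with pristane over the lines, by 0.56 ± 0.10 and 0.72 ± 0.15 (adjusted p = 0.0115 and 0.022), in the same contrast that called Cd209a and Mgl2. In that contrast 1.97% of all genes were called lower. Cd68, a lysosomal protein of macrophages, was called higher with pristane in AIRmax, by 0.81, and its response differed between the lines by 1.41. The mean macrophage level was 8.75 to 8.98 in AIRmax pristane against 8.63 to 8.81 in AIRmax control footpads, and 8.08 to 8.56 in AIRmin pristane against 8.61 to 8.83 in AIRmin control footpads. The AIRmax ranges overlapped, and the markers did not move together: Mrc1 differed by -0.32 in AIRmax and -0.81 in AIRmin, and Lyve1 by -0.93 and -0.51. The part of any one cell type in the Cd209a values was not tested.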

How the data were processed

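Footpad RNA of 16 mice was hybridised to Affymetrix Mouse Gene 1.0 ST arrays, 1 mouse per array, 4 biological replicates per group. The deposited values were log2 signals per probe set: the array titles name gene-level RMA, the submitters' processing notes name MAS5, and settings and build are not given in the sources used here. Signal, and not read depth, limits precision. Of 35556 probe sets, 21789 named 1 gene (1621 several, 12146 none), giving 19938 genes by brightest probe set, and 19856 matched RefSeq by Entrez number. Groups came from the labels.

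Each comparison of groups was fitted on its 8 arrays with limma 3.58.1 (R 4.3.3), with Benjamini-Hochberg adjustment over all genes. The difference of responses, the line average, sex and the added pristane average used all 16. Alternatives were the mean of probe sets, all probe sets, a filter at the median signal, arrays standardized as in the study, quantile normalization, a trended robust prior, 1 fit of 16 arrays, SAM (70 relabellings, false discovery rate 0.05), sex as a covariate, and each array left out. The fits were checked on simulated data. Named genes were all 10 members and, of each list, the called genes (at most 4 with the smallest p per comparison) or else the gene with the smallest p between the pristane footpads. Members and lists were chosen with earlier results of these data known, and Flt3l, Il34, Ccr4, Irf4 and the further Cd209 genes were named after their values were seen. Lists describe a group by counts and medians, with no test of the list.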

Additional observations from a re-analysis of the deposited data

Results flagged for a closer look

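In 3 of 40 sets of 4 arrays (10 members in 4 groups), 1 array stood apart from the other 3 by more of the range than Dixon's 95% limit allows, where chance gives about 1 in 20. All 3 were AIRmax control females. Cd207 measured 7.19 in the female numbered 107, against 6.03 to 6.13 in the others. The female numbered 108 had 6.77 for Epcam, against 7.51 to 7.61, and 5.16 for Itgax, against 5.80 to 5.81.

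For 3 members the sexes ran opposite ways in different groups, with both females on one side of both males in one group and on the other side in the other. Each such group holds 2 females and 2 males, and the differences were not tested. The share of all genes that ran opposite ways was not computed, so the count of 3 members is only a description. The female minus male difference of Flt3 was 1.04 log2 units lower in AIRmax pristane than in AIRmax control footpads (a change of -1.04). That of Zbtb46 was -0.30 in AIRmax control footpads relative to AIRmin pristane footpads. That of Cd209a was -1.77 in AIRmax pristane relative to AIRmin pristane footpads: AIRmax pristane females averaged 5.92 and males 7.27, whereas AIRmin pristane females averaged 6.76 and males 6.34.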

How the results depend on the processing

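Of 1526 recomputed values of the members, 1430 kept their direction and their side of the threshold, 4 passed it newly, 10 no longer passed, and 82 turned sign, none of them above 0.22 log2 units in the reported fit. The count of called members became 1 in AIRmin by SAM (Cd209a), and with 1 array left out it spanned 0 to 1 for the line average (Epcam or Zbtb46) and 0 to 1 for the pristane average (Cd209a). Quantile normalization turned Zbtb46 to 0.021, Xcr1 to -0.041 and Clec9a to -0.092 in the AIRmax response, Zbtb46 to 0.025 in the AIRmin response and 0.0070 for sex, and Zbtb46 to 0.023 and Xcr1 to -0.011 in the pristane average. Standardized arrays turned Clec9a to -0.058 in the AIRmax response. The cause was not tested.

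With each array left out in turn, signs turned as follows. In the AIRmax response Cd207 spanned -0.49 to 0.086, Zbtb46 -0.056 to 0.059, Xcr1 -0.067 to 0.18 and Clec9a -0.13 to 0.099. In the AIRmin response Epcam spanned -0.018 to 0.23, Zbtb46 -0.054 to 0.033 and Ccl17 -0.26 to 0.18. Between the pristane footpads Cd207 spanned -0.28 to 0.37, Xcr1 -0.24 to 0.0063 and Cd209a -0.37 to 0.29, and between the controls Itgax -0.011 to 0.25, Cd209a -0.27 to 0.040 and Ccl22 -0.15 to 0.30. For the difference of responses Zbtb46 spanned -0.056 to 0.060, Xcr1 -0.14 to 0.11 and Cd209a -0.28 to 0.38, and for the line average Cd209a -0.23 to 0.099 and Ccl17 -0.021 to 0.20. For sex Epcam spanned -0.31 to 0.048, Flt3 -0.0086 to 0.16, Zbtb46 -0.041 to 0.018 and Cd209a -0.23 to 0.098. In the pristane average Cd207 spanned -0.046 to 0.28, Zbtb46 -0.032 to 0.029 and Ccl22 -0.13 to 0.095.

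Counts of called genes over the whole array moved more. With 1 array left out, AIRmax called 4 to 107 genes (56 with all arrays), AIRmin 0 to 138 (0), the pristane footpads 14 to 520 (271), the controls 9 to 19 (16), the difference of responses 15 to 120 (34), the line average 796 to 2951 (1886), sex 8 to 86 (21) and the pristane average 256 to 786 (504). Across the other alternatives they were 22 to 754, 0 to 422, 173 to 1519, 7 to 259, 32 to 61, 1700 to 2021, 9 to 22 and 378 to 528 in the same order. No paired analysis was possible because the array numbers are unique and no group shares them.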

Other observations

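Other tissue markers differed with pristane over the lines beside the dendritic cell genes, in a contrast where 1.97% of all genes were called lower. Of 7 adipocyte markers 5 were called lower, among them the lipid droplet gene Plin1 (-1.24 ± 0.24) and the hormone gene Adipoq (-1.24 ± 0.26), and their mean level was 6.85 in AIRmax pristane against 7.94 in AIRmax control, and 7.33 in AIRmin pristane against 8.08 in AIRmin control footpads. Ms4a1 and Cd79a of B cells were called lower by 1.95 ± 0.34 and 1.55 ± 0.29. Of 8 T cell markers 1 was called lower, Cd3g (-0.75 ± 0.18), and of 12 haematopoietic precursor markers 1, Cd34 (-0.53 ± 0.12).

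Of 10 skeletal muscle markers, all were lower in AIRmax pristane than in AIRmin pristane footpads, with mean levels of 9.19 and 10.38. Beside 1.36% of all genes, 1 of the 10 was called, the myoglobin gene Mb (-1.84). Of 8 mature neutrophil markers 2 were called higher in AIRmax than in AIRmin over both treatments, where 9.46% of all genes were called, with a median difference of 1.60. Of 11 glandular epithelium markers 2 were called lower in that comparison, Ehf (-0.73) and Cldn3, and none was called with pristane over the lines.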
